A study of Mus musculus with 21 samples.

Results

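Fatty acid oxidation and targets of the PPAR receptors were followed as a module of 32 named genes, matched by the first symbol of each table entry, out of 50649 genes listed in the deposited tables. Macrophages were grown from the bone marrow of C57Bl6/J mice aged 24 weeks, fed standard chow or a Western diet for 24 weeks. Age and time on the diet are both given as 24 weeks, and how they fit together is not resolved here. The cultures held 30% L929 supernatant, a usual source of macrophage growth factor. In the fatty acid table, chow macrophages were left untreated, given 100 ng/ml lipopolysaccharide (LPS, a bacterial membrane lipid) for 24 h from day 7, or kept in 10 mM fatty acid (palmitic to oleic acid 1:3) for the first 4 days before that LPS, without or with 200 nM TAK242, an inhibitor of the LPS receptor TLR4. No group had fatty acid without LPS, and none had TAK242 without fatty acid. The Western diet table holds untreated chow macrophages (replicates 4 to 6) and libraries labelled Western diet, untreated or with LPS. Each of the 7 groups has 3 libraries. The labels do not say whether a replicate is an animal or a culture, so p-values measure the spread between these libraries, which may be technical.

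To be burned in mitochondria, a fatty acid is first joined to coenzyme A by an acyl-CoA synthetase, then carried across the inner membrane by the carnitine shuttle. The beta-oxidation spiral then removes acetyl-CoA in repeated rounds of dehydrogenation, hydration, a further dehydrogenation and thiolysis, and the electron transfer flavoprotein passes electrons to the respiratory chain. PPAR alpha, gamma and delta are nuclear receptors that bind DNA with RXR when fatty acids or their derivatives occupy them, and many genes of this pathway are among their known targets. In macrophages, PPAR gamma is known for lipid uptake and storage programmes, and activation by LPS is known to shift fuel use away from fatty acid oxidation.

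Summed deposited values lay between 321532 and 386023 per library, and 8803 to 10145 genes reached a value of 1. The files give no reads, so depth is unknown. Macrophage markers (8 genes) summed to 5847 to 15418 in a library, and each of these 8 reached 1 in at least 1 library of every group. Among the adipocyte and hepatocyte markers, Lep, Cfd, Alb and Ttr were listed at 0 in all 21 libraries. The whole lists summed to at most 0.0748 (adipocytes, 6 genes) and 0.0660 (hepatocytes, 4 genes) in a library. Dendritic cell markers (6 genes) summed to 0.0798 to 3.70 in the Western diet untreated label. Their sums were 0.103 to 0.684 in the LPS label and 0.115 to 0.167 in chow of that table. Stromal markers (8 genes) summed to 7.00 to 15.5 in untreated, 21.5 to 50.3 in LPS, 9.08 to 11.8 in fatty acid before LPS and 19.1 to 23.1 in fatty acid with TAK242 libraries. Neutrophil markers (9 genes) summed to 35.5 to 52.2, 119.9 to 384, 79.8 to 90.2 and 65.1 to 88.8 in the same groups. In the Western diet table, stromal sums were 0.191 to 0.771 in chow, 3.59 to 6.66 in the untreated label and 1.48 to 2.67 in the LPS label, and neutrophil sums 35.8 to 57.1, 25.9 to 70.6 and 76.3 to 81.6. The part of these cell types in the results below was not tested. In bulk libraries, fewer cells of a type and less RNA per cell cannot be told apart.

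The LPS reference genes went against the labels of 4 Western diet libraries. The chemokine gene Ccl5 stood at 2.06, 2.38 and 1.57 in the chow libraries of that table, at 7846, 13.7 and 10973 in replicates 1 to 3 labelled Western diet untreated, and at 0.463, 10.5 and 6905 in replicates 1 to 3 labelled Western diet with LPS. Il1b, which encodes a fever-inducing cytokine, was at 717, 2.42 and 598 and then at 0.0651, 0.596 and 66.6 in the same 6 libraries. Results on these libraries are therefore given by label, and also without those 4 (untreated label 1 and 3, LPS label 1 and 2).

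Promoter windows from RefSeq (GRCm38.p6, 250 bases before to 50 after a start) were matched for 28 members in 31 windows. The divergent pair Hadha and Hadhb is shown because its genes encode the alpha and beta subunits of the same trifunctional enzyme and both fell with LPS (values below). Their RefSeq starts lie 273 bases apart on opposite strands of chromosome 5. The windows share 228 bases (Hadha chr5:30154931-30155230, minus strand, and Hadhb chr5:30155003-30155302, plus strand). The deposited gene bounds place the starts elsewhere, at 30155162 for Hadha and 30155248 for Hadhb. Capitals mark the 50 bases from the RefSeq start onward.
Hadha: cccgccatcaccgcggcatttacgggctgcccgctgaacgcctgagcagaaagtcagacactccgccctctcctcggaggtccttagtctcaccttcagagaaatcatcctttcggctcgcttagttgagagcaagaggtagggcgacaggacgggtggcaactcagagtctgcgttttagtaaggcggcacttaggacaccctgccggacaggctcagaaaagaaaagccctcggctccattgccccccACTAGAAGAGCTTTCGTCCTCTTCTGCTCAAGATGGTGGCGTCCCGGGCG
Hadhb: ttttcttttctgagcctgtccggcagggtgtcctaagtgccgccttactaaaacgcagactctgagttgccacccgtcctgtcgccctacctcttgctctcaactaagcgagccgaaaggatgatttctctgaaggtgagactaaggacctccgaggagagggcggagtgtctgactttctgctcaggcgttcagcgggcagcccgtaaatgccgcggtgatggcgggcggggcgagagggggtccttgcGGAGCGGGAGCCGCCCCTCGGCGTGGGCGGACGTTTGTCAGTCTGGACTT

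Acsl1, which showed the widest change of the members tested, has 2 RefSeq starts 19929 bases apart on the plus strand of chromosome 8 (chr8:46470787-46471086 and chr8:46490716-46491015). Its windows are shown because the deposited value per gene does not separate these starts. Capitals mark the same 50 bases.
Acsl1, upstream start: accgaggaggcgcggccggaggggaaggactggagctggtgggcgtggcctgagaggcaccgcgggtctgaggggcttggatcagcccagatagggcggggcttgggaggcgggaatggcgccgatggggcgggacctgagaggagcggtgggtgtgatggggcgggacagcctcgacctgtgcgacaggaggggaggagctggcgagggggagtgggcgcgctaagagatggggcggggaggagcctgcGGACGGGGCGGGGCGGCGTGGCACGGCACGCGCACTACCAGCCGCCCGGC
Acsl1, downstream start: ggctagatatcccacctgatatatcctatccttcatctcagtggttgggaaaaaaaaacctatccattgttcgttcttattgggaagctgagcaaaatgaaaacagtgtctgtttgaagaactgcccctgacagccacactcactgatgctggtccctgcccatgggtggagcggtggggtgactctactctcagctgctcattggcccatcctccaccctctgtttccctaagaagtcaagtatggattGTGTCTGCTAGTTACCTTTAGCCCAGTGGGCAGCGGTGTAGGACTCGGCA

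The element bound by PPAR with RXR is built from repeats of AGGTCA. That motif was searched on both strands and was found in the windows of 5 members (Acadm, Acadvl, Cpt1a, Echs1 and Pparg), beside 16.3% of all 32851 windows of this length. The full repeat AGGTCANAGGTCA, which contains the shorter motif and overlaps its match in Echs1, was in no member window and in 0.0396% of all windows. With up to 2 mismatches it was in 3.86% of all windows and in those of Echs1, Etfa and Slc25a20, shown here with matching bases in capitals and the spacer and mismatches in lower case.
Echs1: AGGTCAcgGGTCc
Etfa: AGGgCAaAGGTaA
Slc25a20: AGGTgAaAGGTCg
Counted from the start as 0, in the direction of transcription, the leftmost base lay at -83 in the Echs1 window (chr7:140116372-140116671, minus strand), at -77 in the Etfa window (chr9:55512194-55512493, minus strand, match on the opposite strand) and at 6 in the Slc25a20 window (chr9:108661886-108662185, plus strand). These matches describe letters and do not show binding.

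A gene entered the tests of a table when its value reached 1 in at least 3 libraries, which 26 of the 32 members did in each table. The remaining 6 were too low in the fatty acid table: Acot1, Acot2, Ppara, Ppard, Ppargc1b and Pdk4. In the Western diet table Ppard passed and Angptl4 did not. Changes are log2 changes of (value + 1), which understate the change of low genes, and a member is called changed at a limma p below 0.05 after Benjamini-Hochberg adjustment over all genes tested. Levels are compared within a gene only, since the unit is not named.

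The first comparison asks how LPS alters the module in chow macrophages. LPS raised the acyl-CoA synthetase genes Acsl1, Acsl5 and Acsl4 and lowered most genes of the oxidation spiral and its electron carriers. In all, 17 of the 26 members tested fell, where 47.9% of all 10476 genes fell, and 5 rose, where 13.8% of all genes rose. The median log2 change of the members was -0.57, against -0.31 over all genes. Pparg passed the filter through its untreated libraries alone and so had to fall. Without it, 16 of 25 members fell and 5 rose.

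**Figure D1:**
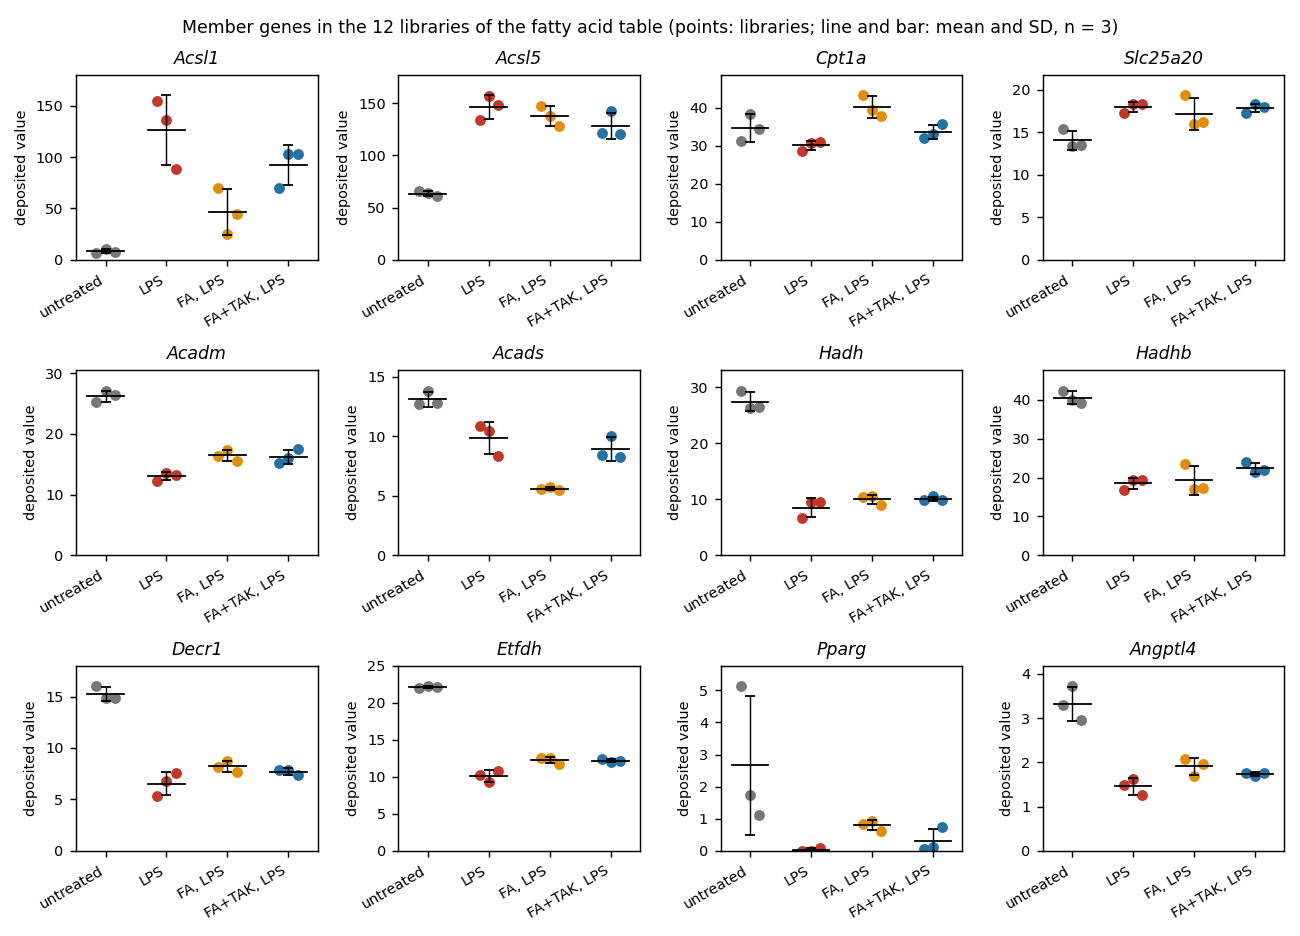
Deposited values of 12 members (y axis, linear from 0) in the 12 libraries of the fatty acid table, in groups on the x axis: untreated, LPS, fatty acid (FA) before LPS, and fatty acid with TAK242 before LPS. Points are libraries, lines are means and bars are SDs (n = 3). Acsl1 rises from 6.73 to 10.4 in untreated libraries to 88.4 to 154 with LPS, while Hadh drops from 26.3 to 29.4 to between 6.60 and 9.54.

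The synthetases, which activate fatty acids before any further step, split by gene. Acsl1 (chromosome 8, 46471037 to 46536051) was at 6.73, 10.4 and 8.01 in untreated libraries and at 154, 136 and 88.4 with LPS, a log2 change of 3.74 ± 0.34 SE (limma adjusted p = 3.11e-06). Every LPS library lay far above every untreated library. Acsl5 (chromosome 19, 55253369 to 55296627) went from 65.4, 63.6 and 61.0 to 134, 156 and 148 (1.19 ± 0.09 SE, limma adjusted p = 1.14e-06). Acsl4, which prefers arachidonic acid, rose from 9.11 ± 1.03 to 15.1 ± 2.60 (SD, n = 3), a log2 change of 0.67. Acsl3, a synthetase of the endoplasmic reticulum and lipid droplets, went the other way, from 5.44, 4.94 and 4.90 to 1.64, 1.54 and 1.13 (-1.32 ± 0.10 SE, limma adjusted p = 7.29e-07). So 3 synthetase genes rose and 1 fell.

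Of the 3 genes of the carnitine shuttle, 1 rose, 1 fell and 1 did not pass. Cpt1a, the outer-membrane enzyme that commits acyl chains to the mitochondrion and the usual control point of the pathway, was at 31.3, 38.5 and 34.4 without and at 28.7, 30.7 and 31.0 with LPS. Its groups did not overlap, but the change of -0.20 did not pass the test (limma adjusted p = 0.0815). Slc25a20, the carrier of acylcarnitines through the inner membrane, rose from 14.1 ± 1.10 to 18.0 ± 0.61 (0.34), and Cpt2, which returns the chain to coenzyme A inside, fell from 3.30 ± 0.17 to 2.01 ± 0.20 (-0.52).

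Acyl-CoA dehydrogenases carry out the initial step of each round, each for a range of chain lengths. Acadm, for medium chains, fell from 25.2, 27.0 and 26.4 to 12.3, 13.5 and 13.2 (-0.96 ± 0.08 SE, limma adjusted p = 1.47e-06). Acadl, for long chains, fell from 69.4 ± 1.66 to 39.9 ± 1.60 (-0.78), and Acads, for short chains, from 13.1 ± 0.63 to 9.89 ± 1.34 (-0.38). Acadvl, for very long chains, did not pass the test (-0.13, with a 95% interval of -0.31 to 0.06). Exons of Acadvl share 1151 of 2686 bases with Dvl2 on the opposite strand, and whether counting used strand is not given in the sources used here, so its values are uncertain.

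All 5 genes of the later steps fell. Hadh (chromosome 3, 131233419 to 131272101), the hydroxyacyl-CoA dehydrogenase for shorter chains, went from 29.4, 26.3 and 26.5 to 6.60, 9.46 and 9.54 (-1.59 ± 0.12 SE, limma adjusted p = 1.02e-06), the strongest fall among members with values of at least 1 in every library. The divergent pair printed above fell unequally: Hadhb from 40.5 ± 1.65 to 18.5 ± 1.46 (-1.09) and Hadha from 47.6 ± 1.71 to 30.6 ± 3.02 (-0.62). Acaa2, the thiolase of the spiral, changed by -0.91, and Echs1, the short-chain hydratase, by -0.47.

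Unsaturated fatty acids need auxiliary enzymes, and these did not move as a unit. Decr1, the dienoyl-CoA reductase, fell from 16.0, 14.8 and 14.9 to 5.33, 6.79 and 7.52 (-1.11 ± 0.11 SE, limma adjusted p = 5.04e-06). Eci2, an enoyl-CoA isomerase, rose by 0.34, and the isomerase gene Eci1 was at 12.4 ± 1.08 and 12.2 ± 1.41 (-0.02, not past the test). The electron carriers all fell. Etfdh, the oxidoreductase that hands electrons to ubiquinone, went from 22.0, 22.2 and 22.1 to 10.3, 9.28 and 10.8 (-1.06 ± 0.07 SE, limma adjusted p = 3.38e-07), Etfb changed by -0.88 and Etfa by -0.50. Etfb shares 617 of its 1164 exon bases with the gene model Gm45233 on the same strand, so its values are uncertain.

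Of the peroxisomal enzymes, Acox3, an oxidase for branched chains, changed by -0.98 (limma adjusted p = 0.0203), a call lost without LPS replicate 1 or 2 and without untreated replicate 1 or 2 (adjusted p 0.0558 to 0.0808). The thiolase gene Acaa1a did not pass the test on deposited values (0.45, 95% interval -0.13 to 1.03). It shares 290 exon bases with Myd88 on the opposite strand, and Myd88, an adaptor of TLR4, rose from 14.2, 14.0 and 13.8 to 29.8, 37.5 and 40.4. A share of 26.7% of the 50-base windows of Acaa1a transcripts also occurs in its paralog Acaa1b.

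Among the receptors, Pparg (chromosome 6, 115360951 to 115490399) was at 5.13, 1.74 and 1.12 in untreated libraries and at 0.00258, 0.00218 and 0.105 with LPS, a log2 change of -1.67 on the (value + 1) scale. Its untreated libraries varied more than 4-fold between replicates. Ppara was listed at 0 in all 21 libraries. Ppard ran from 0.240 to 2.15 and Ppargc1b, a coactivator, from 0.00933 to 0.384 over all libraries. Angptl4, a secreted inhibitor of lipoprotein lipase and a PPAR target, fell from 3.29, 3.72 and 2.95 to 1.50, 1.62 and 1.26 (-0.81, limma adjusted p = 1.93e-05), while Pdk4, an inhibitory kinase of pyruvate dehydrogenase, did not exceed 0.148 in any library. The thioesterase genes Acot1 and Acot2, which release fatty acids from coenzyme A, were too low to test. Acot1 stood at 1.03, 0.891 and 0.508 without and at 0.0502, 0.0366 and 0.158 with LPS, and 23.5% of its 50-base transcript windows also occur in Acot2, so these values are uncertain.

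Part of this pattern depends on how libraries are scaled. Median-ratio scaling moved the median of all genes by 0.32, from -0.31 to 0.01. After it, 12 members fell and 9 rose (11 and 9 without Pparg), where 26.9% and 27.2% of all genes did so. Acads, Echs1, Etfa, Cpt2 and Acox3 were no longer past the test, Cpt1a (0.18), Acadvl (0.25) and Eci1 (0.34) turned to higher calls, and Acaa1a gained one (0.83, limma adjusted p = 0.0238). Hadh, Acsl3, Decr1, Hadhb, Etfdh, Acadm, Acaa2, Acadl, Angptl4, Etfb and Hadha fell on either scale, and Acsl1, Acsl5, Acsl4, Eci2 and Slc25a20 rose on either. Pparg also fell on either, a direction fixed by its passing the filter through untreated libraries alone.

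**Figure D2:**
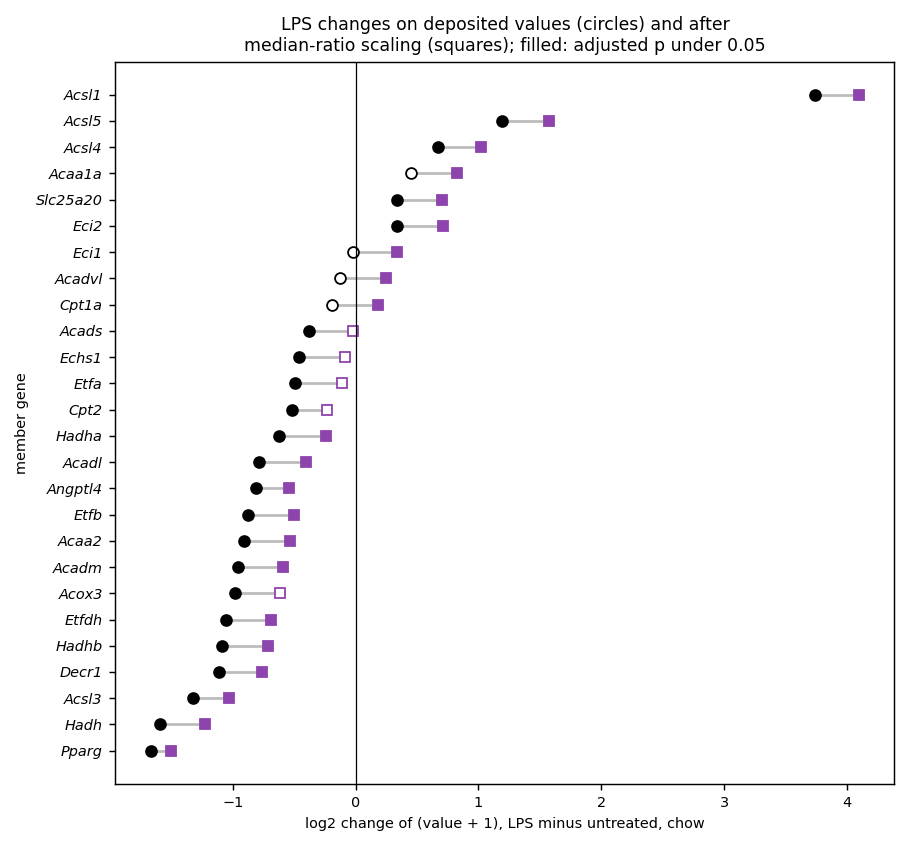
Log2 changes of (value + 1) with LPS in chow macrophages for the 26 members tested (x axis), on deposited values (circles) and after median-ratio scaling (squares). Filled symbols passed an adjusted p of 0.05 and lines join the values of a gene. Cpt1a, Acadvl and Eci1 cross 0 with scaling, while Hadh stays low at -1.59 and -1.23.

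The second comparison asks whether fatty acid in the first 4 days alters the module after LPS. Of the 26 members, 6 were higher than with LPS alone, where 21.8% of all genes were higher, and 2 were lower, where 15.3% of all genes were lower. The median change was 0.00 for members and 0.06 for all genes. The rises, near the share of all genes, were small and spread over different steps, and the falls hit Acsl1 and Acads. After median-ratio scaling 4 members were higher and 2 lower, where 2084 of 10476 genes went each way. Echs1 (limma adjusted p = 0.0506) and Decr1 (0.0864) then lost their calls.

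Acsl1, at 154, 136 and 88.4 with LPS alone, was at 69.5, 25.1 and 44.8 after fatty acid (-1.50 ± 0.34 SE, limma adjusted p = 0.00631). No fatty acid library reached the lowest LPS library, and none came down to the untreated range. Acads was at 10.9, 10.5 and 8.36 with LPS and at 5.55, 5.74 and 5.49 after fatty acid (-0.72 ± 0.10 SE, limma adjusted p = 9.29e-04). These fatty acid libraries lay close together and below every other library of the table.

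Higher after fatty acid were Acaa2 (14.4 ± 3.11 to 20.6 ± 1.71, 0.50), Cpt1a (30.1 ± 1.23 to 40.2 ± 2.81, 0.40), Echs1 (27.8 ± 3.17 to 35.3 ± 2.65, 0.34), Acadm (13.0 ± 0.66 to 16.5 ± 0.92, 0.32), Decr1 (6.55 ± 1.12 to 8.20 ± 0.52, 0.30) and Etfdh (10.1 ± 0.79 to 12.3 ± 0.43, 0.26). For Cpt1a the fatty acid libraries stood at 43.4, 39.5 and 37.9, all above the LPS range of 28.7 to 31.0 (limma adjusted p = 0.00626). Cpt1a and Acadm kept their calls under every alternative tried, as did Acsl1 and Acads. Decr1 lost its call without LPS replicate 1 or 2 or without any 1 of the fatty acid libraries (adjusted p 0.0629 to 0.147). Echs1 lost its call without LPS replicate 1 (0.0528) or fatty acid replicate 2 (0.0791), and Etfdh without LPS replicate 2 (0.0675) or fatty acid replicate 2 (0.0603). With only the 6 libraries compared, Acaa2 (limma adjusted p = 0.0629), Echs1 (0.0702), Etfdh (0.0768) and Decr1 (0.137) all lost their calls. Pparg was at 0.847, 0.944 and 0.633 after fatty acid, above all 3 LPS libraries, but its change of 0.80 did not pass (limma adjusted p = 0.0725), though it did with only the 6 libraries compared (0.00775) and with a pseudocount of 0.1 (0.00661). Angptl4 stood at 2.07, 1.69 and 1.96 and did not pass either (0.24, limma adjusted p = 0.0597). The stromal and neutrophil marker sums given above were also lower after fatty acid than with LPS alone, and their part in these values was not tested.

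**Figure D3:**
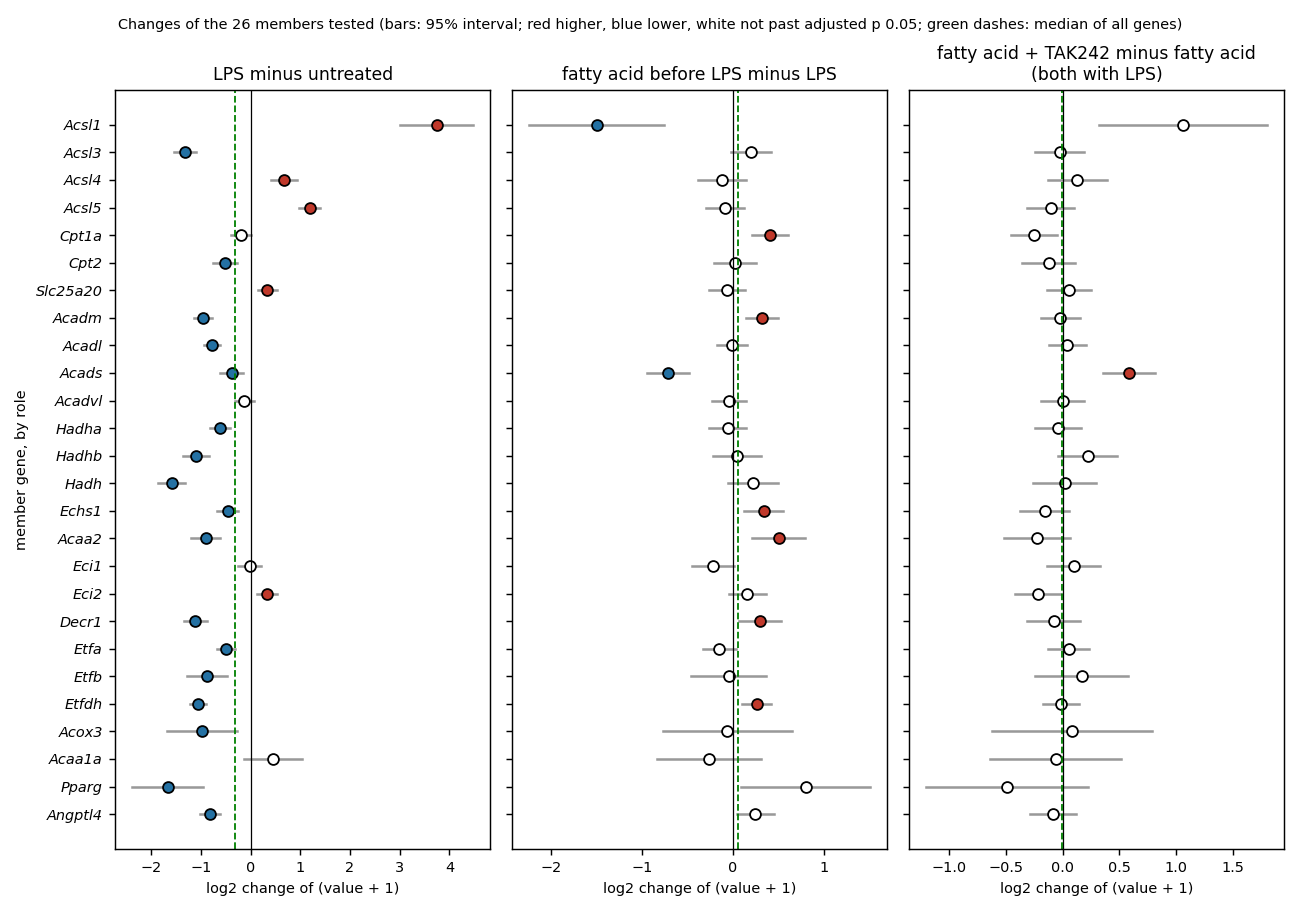
Log2 changes of (value + 1) on the x axes for the 26 members tested, ordered by role on the y axis, in 3 comparisons of the fatty acid table. Bars are 95% intervals, red and blue mark higher and lower calls, and green dashes the median of all genes (-0.31, 0.06 and 0.00). Acsl1 and Acads are the members lower after fatty acid, and Acads is the member called with TAK242.

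The next comparison asks how the module differs when TAK242 was present during the fatty acid days. No group had TAK242 without fatty acid, so an effect of TAK242 itself cannot be told apart from one on the fatty acid response. With TAK242, 1 of 26 members was higher than with fatty acid alone, where 3.01% of all genes were higher. None was lower, where 1.68% of all genes were lower. Acads rose to 8.45, 10.0 and 8.27 (0.59 ± 0.10 SE, limma adjusted p = 0.0167), back within the range with LPS alone except for its lowest library. This call was lost without fatty acid replicate 2 or 3 or without TAK242 replicate 2 (adjusted p up to 0.0810). Acsl1 stood at 69.6, 103 and 103, a change of 1.06 that did not pass (limma adjusted p = 0.0963, 95% interval 0.322 to 1.804) and reached 1.41 at 0.0437 without fatty acid replicate 1. Cpt1a was at 32.1, 33.1 and 35.7, below all 3 fatty acid libraries (-0.25, limma adjusted p = 0.133), and passed after median-ratio scaling (-0.26, 0.0442). At an unadjusted p under 0.05, 4 members would be counted, beside 23.1% of all genes.

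Against LPS alone, fatty acid with TAK242 gave no changed member, where 5.89% of all genes changed, and 3 members at an unadjusted p under 0.05, beside 29.8% of all genes: Acadm (0.30), Etfdh (0.24) and Hadhb (0.26). The adjusted limma p was 0.0514 for Acadm and 0.0641 for Etfdh. Without LPS replicate 3, Acadm, Etfdh and Acaa2 passed. Median-ratio scaling turned the split of all genes from 424 higher and 193 lower to 452 and 558. The interval for Acsl1 ran from -1.18 to 0.30, so a return to the level of LPS alone is not shown.

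Set against untreated macrophages, fatty acid before LPS gave 16 members lower, where 44.9% of all genes were lower, and 5 higher, where 15.2% were higher. Without Pparg, 15 of 25 were lower. After median-ratio scaling the counts were 13 and 6, with 29.1% and 27.3% of all genes. This comparison shares its untreated libraries with that of LPS alone, so values are given side by side. Acsl1 was higher by 2.24 here and 3.74 with LPS alone, Hadh lower at -1.37 and -1.59, and Acads at -1.10 and -0.38. Cpt1a stood above the untreated level at 0.21 without passing (limma adjusted p = 0.0668) and was at -0.20 with LPS alone. After median-ratio scaling its value here was 0.52 (adjusted p = 6.57e-05).

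In the Western diet table no member passed in any comparison by label. Western diet untreated label against chow gave 0 of 26 members, where 0.232% of all 10331 genes passed, and 9 members at an unadjusted p under 0.05 in limma, beside 27.3% of all genes. LPS label against untreated label gave 0, where 0.958% of genes passed, and 9 members unadjusted, beside 17.2% of all genes. LPS label against chow gave 0, where 1.39% of genes passed, and 3 members unadjusted, beside 12.6% of all genes. The spread within the labelled groups was wide. Hadh was at 3.07, 21.9 and 2.13 in the untreated label and at 27.9, 28.7 and 11.5 in the LPS label, against 27.1, 24.7 and 23.0 in chow. Its low libraries are those with high Ccl5. Acsl1 followed the opposite order, at 87.7, 11.8 and 33.9, then 7.57, 6.90 and 47.7, against 8.38, 11.6 and 8.58 in chow. Acsl3 stood at 0.635, 7.86 and 0.584, then 5.15, 5.25 and 2.18, against 8.41, 6.71 and 9.23.

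**Figure D4:**
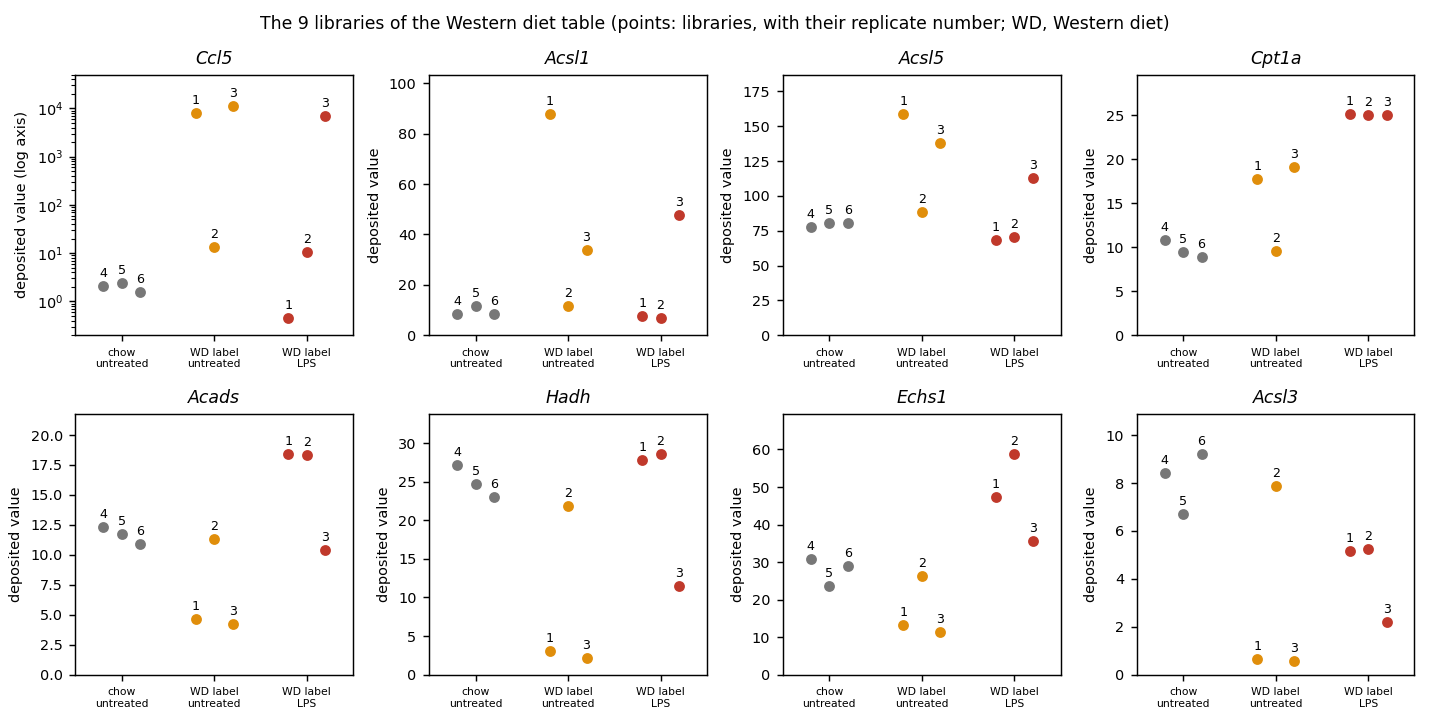
Deposited values (y axis, log for Ccl5 and linear from 0 elsewhere) in the 9 libraries of the Western diet table by label (x axis; WD, Western diet). Points are libraries with their replicate number. Hadh is at 3.07 and 2.13 in the libraries labelled untreated 1 and 3, which have Ccl5 at 7846 and 10973, and Cpt1a is near 25 in all 3 libraries of the LPS label.

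Cpt1a did not follow that order. It was at 10.9, 9.44 and 8.90 in chow, at 17.8, 9.55 and 19.1 in the untreated label and at 25.1, 25.0 and 25.0 in the LPS label, 3 libraries whose Ccl5 ran from 0.463 to 6905. Its change of 1.28 against chow did not pass (limma adjusted p = 0.0553), and over the alternatives that p ran from 0.00645 to 0.228. Slc25a20 likewise stood at 13.8, 14.3 and 13.7 in the LPS label and at 8.86, 8.94 and 8.78 in chow (0.60, limma adjusted p = 0.133). The remaining shuttle gene, Cpt2, was at 2.32 ± 0.73 in the LPS label and at 3.00 ± 0.37 in chow (SD, n = 3). The untreated chow libraries of the fatty acid table held Cpt1a at 31.3 to 38.5. The tables may be normalized differently, and this gap was not tested.

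Without untreated label 2, the untreated label had 14 members lower and 4 higher than chow, among them Hadh (-2.86), Acsl3 (-2.49) and Acsl1 (2.42), where 44.4% of all genes were lower and 12.1% higher. The LPS label then had 14 members higher and 1 lower than the untreated label, where 29.8% of all genes were higher and 9.72% lower. Without LPS label 3, that last comparison gave 3 members, higher for Echs1 and Acadl and lower for Acsl4, where 7.23% of all genes changed. Without the 4 libraries that go against their labels, the untreated label is replicate 2 alone and gave 0 members against chow in limma, where 0.223% of all genes passed, with none at an unadjusted p under 0.05, where 10.1% of all genes were. The LPS label is then replicate 3 alone, and 10 members were lower, where 31.4% of all genes were, and 4 higher than chow, where 10.1% were. Acsl1 (2.23), Cpt1a (1.28), Slc25a20 (0.57) and Acsl5 (0.50) were higher, and Pparg (-1.99), Acsl3 (-1.51), Acadm (-1.07) and Hadh (-1.05) led the lower ones. In these fits the spread comes from the 3 chow libraries alone, and each lone library is assumed to vary like them.

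Rank correlations over 10918 genes described where these libraries lie. LPS label 1 and 2 were closest to each other (rho = 0.979) and, in the fatty acid table, to untreated chow libraries (0.962 and 0.960). LPS label 3 was closest to a fatty acid with TAK242 library (0.968), untreated label 2 to a chow library of its own table (0.971), and untreated label 1 and 3 to each other (0.977). These are descriptions over genes, which are not independent.

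The LPS response by label was also compared between tables, as the Western diet response minus the chow response, over the 25 members tested in both. The difference was above 0 for 15 members, where 32.1% of all 10019 genes lay above, and below 0 for 3 (Acsl1, Acsl5 and Acsl4), where 10.7% lay below. Pparg is among the 15, and since its chow response was fixed by the filter, the counts without it are 14 and 3 of 24. The median difference was 1.45 for members and 0.48 for all genes. After median-ratio scaling 12 and 4 members passed, where 21.0% and 20.6% of genes did. Hadh had the widest positive difference, 3.32 ± 0.71 SE (adjusted p = 0.00803, from the difference of the limma changes over its standard error). Its labelled response was 1.73 in the Western diet table and -1.59 in chow. Since 4 libraries go against their labels, this difference cannot be told apart from the labels of those libraries.

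Another 139 genes of fatty acid oxidation and PPAR action, grouped into 6 lists, were read from the same fits, and 94 were tested in the fatty acid table. Acsm3, Fads2 and Lpin1 passed the filter there through their untreated libraries alone and are left out of the counts. Of the other 91, LPS lowered 52 and raised 9, shares of 57.1% and 9.89% where 47.9% and 13.8% of all genes did so. After median-ratio scaling the counts were 37 and 19, shares of 40.7% and 20.9% where all genes had 26.9% and 27.2%. Fatty acid before LPS against LPS alone gave 28 higher and 11 lower, shares of 30.8% and 12.1% where all genes had 21.8% and 15.3%. Scaled in that way, 21 were higher and 13 lower, where 2084 of 10476 genes went each way. The counts of each list are to be read against these shares of all genes, and no list was tested as a set. Of 22 tested genes of other mitochondrial oxidation, 15 fell with LPS and none rose. Among them were Pccb (-1.87), a subunit of propionyl-CoA carboxylase, and Acat1 (-1.44), the acetoacetyl-CoA thiolase. After scaling, 11 of the 22 fell and 2 rose. After fatty acid 6 of these were higher and 3 lower. Of 17 peroxisomal genes 13 fell, among them Hsd17b4 (-1.02), the peroxisomal bifunctional enzyme, and 2 rose. After scaling, 10 fell and 5 rose. With fatty acid 8 were higher, among them Crot (0.57), the carnitine octanoyltransferase, and 2 lower.

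Of the other PPAR targets, 14 are read here, of which 7 fell and 3 rose with LPS, near the shares of all genes for the falls. After median-ratio scaling 5 fell and 3 rose. Fabp4, a fatty acid-binding protein, fell from 103, 95.2 and 98.2 to 4.18, 4.65 and 6.63 (-4.04 ± 0.15 SE, limma adjusted p = 4.39e-09). With fatty acid before LPS, Fabp4 was at 7.52, 9.36 and 7.50 (0.58), and Fabp5, a related binding protein, was also higher (1.21), while Lpl, the lipoprotein lipase, was lower (-1.55). Lpl was higher in fatty acid with TAK242 libraries than in those with fatty acid alone (1.76, limma adjusted p = 0.0469). In that comparison 491 genes passed, and 63 to 305 with a library left out, so a call near the threshold is uncertain. Of 18 PPAR partners and cofactors, 7 were higher after fatty acid and none lower, among them Ncoa3 (0.82) and Rxra (0.39), the partner receptor. Of 10 genes of pyruvate dehydrogenase and its control, 7 fell with LPS and none rose. This split depends on scaling: after median-ratio scaling 2 fell and 2 rose, where 26.9% and 27.2% of all genes did so. In the Western diet table Fabp5, Fabp4 and Plin2, a lipid droplet coat protein, were higher in the LPS label than in chow (5.01, 4.36 and 2.67). Fabp4 stood there at 86.8, 97.8 and 11.5, against 1.36, 1.51 and 1.12 in the chow libraries of that table. The call rests mainly on replicates 1 and 2, which go against their label. Untreated chow libraries of the fatty acid table held Fabp4 at 103, 95.2 and 98.2, and the gap between the tables was not tested.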

How the data were processed

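RNA-seq values of 21 libraries were used. The authors deposited a normalized value per gene in 2 tables, a score whose unit and quantification step are not given in the sources used here. HISAT2 2.0.5, Trim Galore 0.4.1, CASAVA 1.8.2 and FastQC 0.11.5 are listed, with the builds mm9 and mm10 and with no role for either, per the submitters' processing notes. Deposited gene bounds equal those of GENCODE M21 (GRCm38) for 24 of the 32 members. Entries with displaced columns were left out (34 and 31 entries). A gene was fitted when 3 libraries of its table reached a value of 1, as log2(value + 1) in limma 3.58.1 (R 4.3.3) with a mean-variance trend and a spread shared by all libraries of the table. P-values were adjusted over 10476 or 10331 genes. Responses of the tables were compared over 10019 genes with degrees of freedom by Welch and Satterthwaite. Members and gene lists were chosen with earlier results of these data known. All 32 members are accounted for, and up to 4 genes per list and comparison, by smallest adjusted p, could be named from other lists, besides Ccl5, Il1b and genes overlapping a member. Plin2 belongs to that rule through the Western diet table. A marker gene of the planned lists is not reported here. The fit was tested on simulated data. Alternatives were no filter, a minimum of 5, a pseudocount of 0.1, median-ratio scaling, only the 6 libraries compared, leaving out each library or the 4 that go against their labels, and a replicate block. Python 3.11.15, pandas 2.3.3 and matplotlib 3.10.9 were used.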

Additional observations from a re-analysis of the deposited data

Results flagged for a closer look

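The labelled LPS response differed between the Western diet and chow tables for 18 of the 25 members tested in both (15 above 0, where 32.1% of all genes lay above, and 3 below, where 10.7% lay below), by a test of the difference of the limma changes at an adjusted p under 0.05. Values are log2 differences, Western diet label minus chow. The difference was negative for Acsl1 (-4.94), Acsl5 (-1.79) and Acsl4 (-1.47). It was positive for Hadh (3.32), Acox3 (2.22), Decr1 (2.18), Acsl3 (2.13), Acaa2 (2.04), Pparg (2.004), Echs1 (1.95), Hadhb (1.79), Etfb (1.72), Acadl (1.57), Acads (1.57), Etfdh (1.49), Acadm (1.45), Hadha (1.09) and Cpt1a (0.91). The value of Pparg rests on a chow response that the filter on low values fixed. With every library of these 4 groups left out in turn, 11 of the 18 calls held throughout, and Acadm, Acox3, Acsl3, Cpt1a, Etfdh, Hadha and Pparg lost theirs at least in 1 case. Of the 6 Western diet libraries compared, 4 go against their labels in Ccl5 and Il1b, so diet and labelling cannot be told apart here.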

How the results depend on the processing

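With LPS against untreated, 18 to 23 members changed over all settings, against 22 as reported, where 6463 of 10476 genes changed. With fatty acid before LPS against untreated, 17 to 23 changed, against 21 as reported, where 6295 of 10476 genes changed. These counts stayed within 1.5 times of the reported count. Fatty acid before LPS against LPS alone gave 5 members with only the 6 libraries compared, beside 2833 of 10476 genes. It gave 5 to 8 with a library left out, beside 2922 to 4089 genes, against 8 as reported, beside 3893. Fatty acid with TAK242 against fatty acid gave 2 after median-ratio scaling, beside 770 of 10476 genes. It gave 0 to 2 with a library left out, beside 63 to 305 genes, against 1 as reported, beside 491. Against LPS alone, fatty acid with TAK242 gave 1 at a minimum value of 5, beside 501 of 6809 genes. It gave 0 to 3 with a library left out, beside 1 to 1784 of 10476 genes, against 0 as reported, beside 617. Western diet untreated label against chow gave 0 to 18 with a library left out, beside 8 to 5838 of 10331 genes. LPS label against untreated label gave 1 after scaling, beside 206 of 10331 genes, and 0 to 15 with a library left out, beside 18 to 4086 genes. LPS label against chow gave 2 with only the 6 libraries and 14 without those 4. The difference of LPS responses gave 11 to 23 with a library left out, beside 2142 to 6767 of 10019 genes, against 18 as reported, beside 4291. The lowest count, 11, came without LPS label 1 or 2. The cause of these moves was not tested beyond the libraries left out.

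Signs turned for Cpt1a (0.18), Acadvl (0.25) and Eci1 (0.34) with LPS after scaling. Without the 4 libraries they turned in LPS label against untreated label for Acadm (-1.32), Hadh (-0.87), Etfa (-0.84), Acsl1 (1.93), Acsl3 (-1.48) and Pparg (-2.19), and against chow for Decr1 (-0.53). Of the 22 calls with LPS, 17 held in every setting, of the 8 with fatty acid 4, and of the 21 against untreated 17.

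Same-numbered libraries did not deviate together in the fatty acid table (correlations -0.08 to 0.20 in 18 pairs, 1 over 0.1), nor in all 3 pairs of the Western diet table (-0.67 to 0.76), so the numbers were not taken as pairs. With the replicate block, 22, 7, 1, 0 and 20 members changed in the fatty acid comparisons in the order reported. Over all genes the counts were 6364, 3716, 373, 579 and 6201 of 10476. LPS label against untreated label gave 0 members with the block, beside 0 of 10331 genes. The difference of responses gave 17, beside 3587 of 10019 genes. The block lost Decr1 after fatty acid (adjusted p = 0.0742), Pparg against untreated (0.0535) and Cpt1a in the difference (0.0612). Depth is unknown, so a low value such as that of Pdk4 or Ppargc1b cannot be given a detection limit.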
